A study of Homo sapiens with 21 samples.

Results

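The comparison set 3 RNA-seq libraries of PC9ER lung cancer cells against 4 libraries of drug-free PC9 cells, 7 of the 21 libraries of a study of EGFR inhibitor tolerance. PC9 is a human lung adenocarcinoma line with an activating EGFR mutation, and the labels call its parental cells sensitive to gefitinib and osimertinib. PC9ER is listed in the labels as positive for the EGFR mutation T790M and PC9 as negative for it, and no drug response of PC9ER was measured in these libraries. The PC9ER libraries carried a control knockdown, a miR-147b knockdown or a miR-21 knockdown, with 1 library each. The PC9 libraries were the parental cells with no vector and cells carrying a scrambled overexpression vector or one for miR-147b or miR-21, again with 1 library each. Overexpression used lentiviral particles and puromycin selection per the labels, while the method of knockdown, and whether PC9ER was kept in drug, are not stated in the labels. All cells were cultured in DMEM with serum. Each line stands for 1 culture lineage, so every difference belongs to these 2 lines, and line cannot be told apart from vector type, from the miRNA manipulation or from the set in which the libraries were made. The p-values therefore measure only how far libraries of a line spread, and some of that spread may be technical. The 2 drug-tolerant PC9 libraries, made by 14 days in 40 nM gefitinib or 20 nM osimertinib, are used beside some results.

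EGFR is a receptor tyrosine kinase that signals through the ERK and PI3K pathways, and lung cancers with activating EGFR mutations depend on it for growth. Gefitinib and osimertinib block the kinase. T790M changes the gatekeeper residue of the ATP pocket and lowers the effect of first-generation inhibitors such as gefitinib, whereas osimertinib was designed to act on it. Resistance is also known to arise without a further EGFR mutation, through other receptor kinases, changes between epithelial and mesenchymal states, YAP and TEAD activity, or entry into slow-cycling drug-tolerant states, and the gene lists below follow those routes.

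The 2 miRNAs that define the libraries within each line are shown because they set which libraries are repeats of a line and not of a condition. Their mature sequences come from RefSeq on GRCh38.p14, with the seed, bases 2 to 8, in capitals. The first lies on the plus strand at chr15:45433098-45433118 and the second on the plus strand at chr17:59841273-59841294.
hsa-miR-147b-3p: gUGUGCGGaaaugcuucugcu
hsa-miR-21-5p: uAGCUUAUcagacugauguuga
The 2 seeds differ, and per the labels both miRNAs were lowered in PC9ER libraries and raised in PC9 libraries. The manipulated genes check the labels in 1 library only. MIR147B had 61 counts in the miR-147b overexpression PC9 library and 0 in the other 6, and MIR21 had 0 in all 7. Poly(A)-selected libraries do not measure mature miRNAs, so the counts of 0 check neither the knockdowns nor the miR-21 vector.

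Expected counts summed to 16158362 to 26972727 per library, which was 87.8% to 91.2% of the reads. Values are given below as CPM, the usual depth-normalised read count with TMM scaling, in the order control, miR-147b and miR-21 knockdown for PC9ER and parental, scrambled control, miR-147b and miR-21 overexpression for PC9. Libraries did not all sit with their line. The miR-21 knockdown PC9ER library correlated at 0.951 to 0.961 with the 4 PC9 libraries, above its 0.909 with the PC9ER control library and 0.941 with the miR-147b knockdown library (log2 CPM over the genes tested, a description). The difference between the PC9ER libraries followed the GC content of transcripts. In the 3195 genes with the lowest GC content (23.1% to 42.8%), the median deviation from the mean of the 7 libraries was -1.005 on the log2 scale in the PC9ER control library and -0.71 in the miR-147b knockdown library, but 0.39 in the miR-21 knockdown library and 0.12 to 0.63 in the PC9 libraries. In the 3195 genes with the highest GC content (59% to 76.2%) the same medians were 0.48, 0.37, -0.16 and -0.39 to 0.03. The main results are therefore also given with an offset that removes each library's trend with GC content and length, called the GC offset below. With the offset the miR-21 knockdown library correlated at 0.945 and 0.964 with the other PC9ER libraries and at 0.953 to 0.961 with PC9. Mitochondrial transcripts were 0.75%, 0.96% and 1.58% of counts in PC9ER and 3.61%, 1.35%, 1.41% and 1.497% in PC9.

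**Figure D1:**
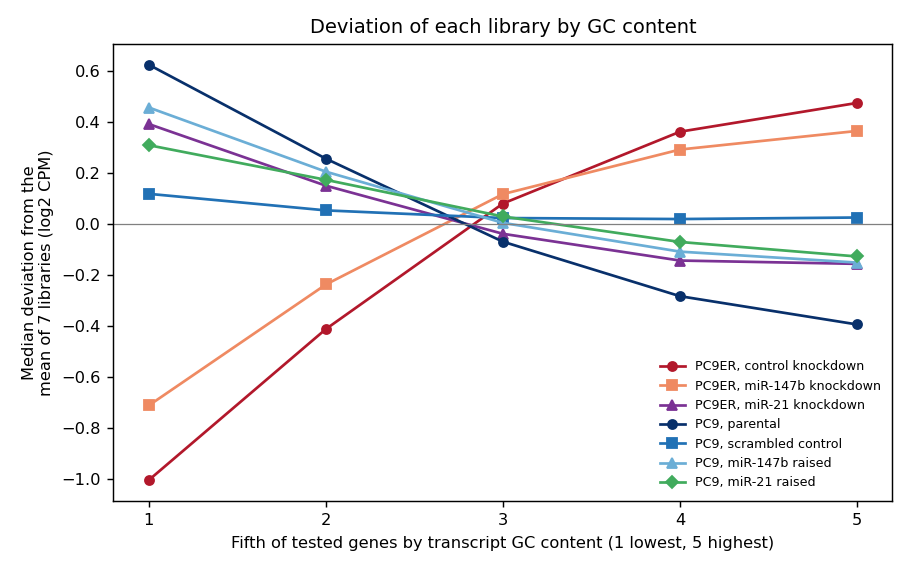
Median deviation of each of the 7 libraries from their mean (log2 CPM, y axis) in 5 equal groups of the tested genes by transcript GC content (x axis). The PC9ER control and miR-147b knockdown libraries run from -1.005 and -0.71 up to 0.48 and 0.37, while the miR-21 knockdown library runs with the PC9 libraries.

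Of 16728 genes tested with edgeR, 1361 were higher and 544 lower in PC9ER at an adjusted p under 0.05, which was 8.14% and 3.25% of genes. These are named called genes. A stricter set, named separated genes, also had a log2 difference of at least 1 and CPM values of the 3 PC9ER libraries all above or all below those of the 4 PC9 libraries. It held 974 higher and 325 lower genes, 5.82% and 1.94% of those tested. With the GC offset 1787 genes were called higher and 1498 lower (10.7% and 8.96%), and 912 and 420 were separated (5.45% and 2.51%), so the share of called genes that were higher was 71.4% without and 54.4% with the offset. Both fits separated 633 higher and 182 lower genes (3.78% and 1.09%), 62.7% of the separated genes. Leaving out the miR-21 knockdown library raised the called genes from 1905 to 7531. Leaving out any other library lowered them, to 536 without the PC9ER control, 487 without its miR-147b knockdown, 1473 without PC9 parental, 842 without the PC9 scrambled control, 389 without PC9 miR-147b and 401 without PC9 miR-21. Of the 121 genes looked at in detail below, 109 were called and 53 of them were also called in all 7 fits with 1 library left out. The direction was the same in those 7 fits for all 121. Most were chosen as separated genes, in which leaving out 1 library can hardly turn the direction, so that outcome was largely fixed in advance.

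The genes with the largest excess in PC9ER, among separated genes with at least 10 CPM in every PC9ER library, included secreted proteins, actin and motor proteins and regulators of signalling. IL32, a secreted inflammatory cytokine, was at 58.0, 38.6 and 37.8 CPM in PC9ER and 6.22, 2.60, 2.25 and 1.70 CPM in PC9 (log2 difference 3.80, SE 0.46, edgeR adjusted p = 0.00495, 3.35 with the GC offset). All 3 PC9ER libraries lay at least 6-fold above the highest PC9 library. LBH, a transcriptional cofactor of limb and heart development, was at 100.4, 60.8 and 46.1 CPM in PC9ER and 2.41, 8.25, 6.88 and 5.39 CPM in PC9 (log2 difference 3.59, 3.18 with the offset). SYNPO, which codes for the actin-binding protein synaptopodin, was at 51.6, 35.2 and 31.9 CPM in PC9ER and 4.48, 3.15, 4.17 and 4.06 CPM in PC9 (log2 difference 3.32, 2.98 with the offset). The spread among the PC9 libraries was far narrower than the gap to PC9ER for SYNPO. KIF1A, a kinesin motor of axonal transport, reached 24.7 to 31.5 CPM in PC9ER against 1.33 to 3.92 in PC9 (log2 difference 3.57, 3.27 with the offset). PROCR, the endothelial protein C receptor, reached 22.3 to 30.3 CPM in PC9ER against 2.70 to 4.33 in PC9 (log2 difference 2.85, 2.65 with the offset). The remaining genes of this group were CAPN5, a calpain protease, MYLK, the myosin light chain kinase, the long noncoding RNA LINC00371, NEURL1B, an E3 ubiquitin ligase of the Notch ligand pathway, PIK3IP1, an inhibitor of PI3K, and CTGF, described below. Their log2 differences were 2.69 to 2.96, and 2.17 to 3.08 with the offset. These 11 genes were called in each of the 7 fits that left out a library.

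The genes with the largest deficit in PC9ER were mixed in kind. DMBT1, a secreted mucosal scavenger receptor protein of epithelial defence, was at 2.64, 5.10 and 2.08 CPM in PC9ER and 17.4, 42.9, 34.9 and 49.4 CPM in PC9 (log2 difference -3.47, SE 0.48, edgeR adjusted p = 0.00737, -3.65 with the offset). COL12A1, a collagen associated with fibril surfaces, was at 11.6, 23.7 and 41.9 CPM in PC9ER and 266, 219.8, 217 and 246 CPM in PC9 (log2 difference -3.20, -2.97 with the offset). The 4 PC9 libraries were close together for COL12A1, whereas the PC9ER libraries spread from the control, which was lowest, to the miR-21 knockdown. CDH5, the cadherin of endothelial junctions, was at 7.34, 10.8 and 2.11 CPM in PC9ER and 37.9, 48.5, 54.7 and 54.6 CPM in PC9 (log2 difference -2.87, -3.21 with the offset). ABCA1, the cholesterol efflux transporter, was at 13.3, 21.3 and 9.97 CPM in PC9ER and 86.9, 57.4, 67.3 and 68.3 CPM in PC9 (log2 difference -2.24, -2.25 with the offset). DIO2, a deiodinase that activates thyroid hormone, was at 4.10 to 8.83 CPM in PC9ER against 28.9 to 59.6 in PC9. PDE8B, a cAMP phosphodiesterase, was at 1.19 to 2.72 CPM in PC9ER against 10.5 to 13.6 in PC9. SPRR2A, a precursor of the cornified envelope, and PI3, the elastase inhibitor elafin, were at 1.29 to 3.21 CPM in PC9ER against 10.2 to 16.2 in PC9 and 31.4 to 50.6 CPM in PC9ER against 86.5 to 262 in PC9. MAP3K1, a kinase upstream of JNK, ARRDC3, an arrestin-like adaptor, and the translation factor EIF5 also belonged to this group, with log2 differences of -2.40, -2.89 and -2.10 (-1.91, -2.14 and -2.02 with the offset). The miR-21 knockdown library was the highest PC9ER library for these 3. Of the 12 genes, DMBT1, COL12A1, SPRR2A, PDE8B, DIO2, ABCA1 and CSGALNACT1, an enzyme of chondroitin sulfate synthesis, were called in all 7 fits with a library left out. EIF5 was called in 1 of the 7, that without the miR-21 knockdown library (log2 difference -3.04), and its adjusted p was 0.0691 to 0.148 in the others. MAP3K1 and PI3 were called in 3 of the 7, ARRDC3 in 4 and CDH5 in 5.

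**Figure D2:**
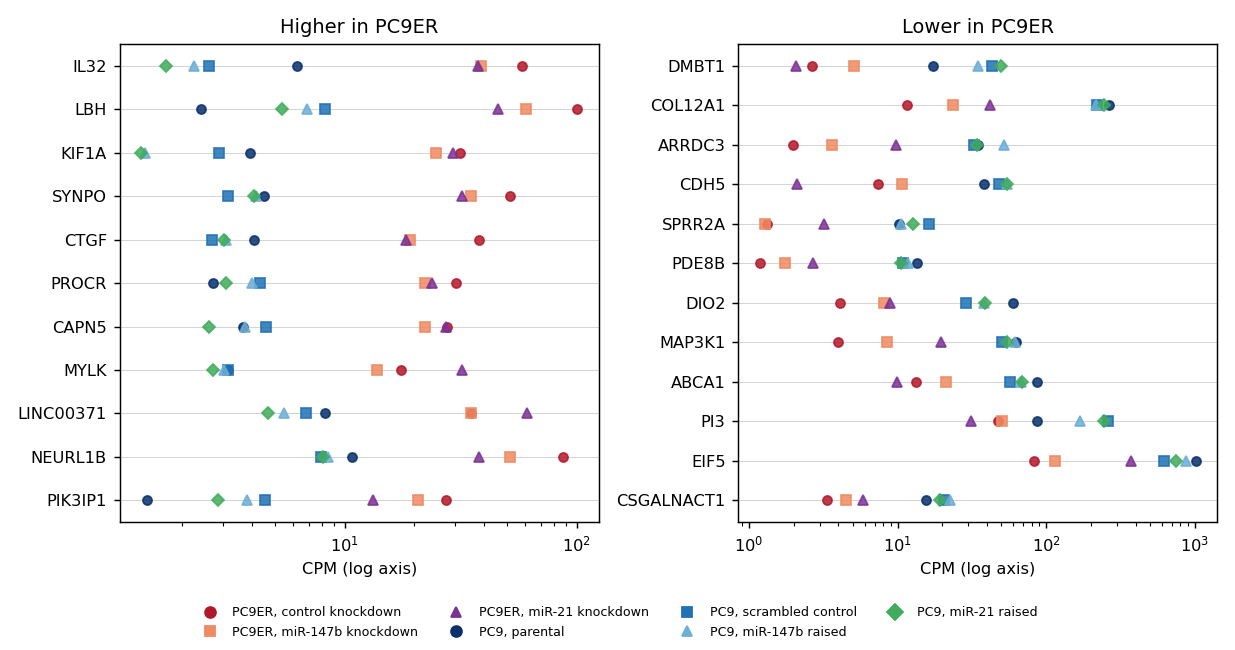
CPM (x axis, log scale) of 11 of the genes with the largest excess and the 12 with the largest deficit in PC9ER, 1 symbol for each of the 7 libraries. In each row the 3 PC9ER symbols lie apart from the 4 PC9 symbols, which the rule that chose these genes requires. IL32 runs from 37.8 to 58.0 in PC9ER against 1.70 to 6.22 in PC9, and COL12A1 from 11.6 to 41.9 against 217 to 266.

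EGFR itself was lower in PC9ER. Its transcript was at 231, 379 and 587 CPM in PC9ER and 1176, 982, 948 and 997 CPM in PC9, and the highest PC9ER library, the miR-21 knockdown, was below the lowest PC9 library. The log2 difference was -1.36 (SE 0.30, edgeR adjusted p = 0.0279) and -1.49 with the GC offset (adjusted p = 0.0195). The call rested on the libraries present. Without the miR-21 knockdown library it was -1.75 (adjusted p = 0.00119), while the other 6 fits with a library left out gave -1.09 to -1.40 with an adjusted p of 0.0563 to 0.123. On a common scale of all 21 libraries, EGFR was at 244 to 630 CPM in PC9ER, 987 to 1240 in PC9, 707 to 888 in the tolerant PC9 libraries, 434 to 477 in H1975 and 6290 to 7650 in drug-free HCC827. The other 2 measured receptors of the family were not called. ERBB2 was at 131, 123 and 64.7 CPM in PC9ER and 51.3, 71.4, 60.8 and 63.5 CPM in PC9 (log2 difference 0.79, edgeR adjusted p = 0.0841, 0.39 with the offset) and ERBB3 at 105, 108 and 80.3 CPM in PC9ER and 92.8, 86.5, 81.5 and 78.0 CPM in PC9 (log2 difference 0.21, adjusted p = 0.413, 0.003 with the offset). Of 8 ligands of the family that were tested, 1 was called, TGFA, at 134, 119 and 157 CPM in PC9ER and 78.1, 68.5, 82.5 and 82.7 CPM in PC9 (log2 difference 0.81, edgeR adjusted p = 0.0198), and with the offset its adjusted p was 0.0565. With the offset 2 other ligands were called, each higher, and the list's median was 0.43 in place of 0.19.

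Receptors that can stand in for EGFR did not move one way. MET, the HGF receptor and a classical bypass kinase, was at 85.4, 157 and 579 CPM in PC9ER and 476, 324, 382 and 329.5 CPM in PC9, so that the miR-21 knockdown library was above and the other 2 PC9ER libraries were below every PC9 library. Its log2 difference was -0.46 (edgeR adjusted p = 0.601), -0.17 with the offset, and -1.64 without the miR-21 knockdown library, where it was called (adjusted p = 0.00333). AXL, another receptor kinase linked to EGFR inhibitor resistance, was at 507, 523 and 401 CPM in PC9ER and 429, 449.9, 442 and 447 CPM in PC9 (log2 difference 0.11, adjusted p = 0.649), and the sign turned with the offset (-0.23). The GC contents of MET and AXL were 43.2% and 58.5%. Of 20 bypass receptors and ligands tested, 2 were called higher and 1 lower, beside 8.14% and 3.25% of all genes. Their median was 0.34, or 0.07 with the offset. With a library left out 1 to 10 were called, the most without the miR-21 knockdown library, a fit that called 7531 of 16739 genes. The lower one, ROR1, a receptor-like kinase that binds Wnt ligands, was at 9.52, 12.9 and 19.6 CPM in PC9ER and 62.7, 45.2, 50.1 and 53.0 CPM in PC9 (log2 difference -1.91, edgeR adjusted p = 0.00832, -1.43 with the offset). ROR1 was separated, beside 1.94% of all genes separated and lower. Of 20 ERK pathway output genes 2 were called, each higher, and the list's median log2 difference was 0.10 beside -0.004 for all genes.

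Genes of DNA replication formed the list with the lowest median. Of 25 genes of DNA replication and S phase, 14 were called, each lower in PC9ER, and 9 were separated. The median of the list was -0.86 beside -0.004 for all genes. With the GC offset 19 were called and 11 separated, each lower, with a median of -0.98. PCNA, the sliding clamp of DNA polymerases, was at 153, 158 and 177 CPM in PC9ER and 432, 524, 626 and 668 CPM in PC9 (log2 difference -1.79, SE 0.20, edgeR adjusted p = 0.00411, -1.48 with the offset). All 3 PC9ER libraries, the miR-21 knockdown without the GC trend among them, were far below the lowest PC9 library. MCM6, a subunit of the replicative helicase, was at 45.9, 60.1 and 66.0 CPM in PC9ER and 159, 188, 195 and 218 CPM in PC9 (log2 difference -1.73, -1.15 with the offset). CDC6, which loads that helicase, was at 35.2, 43.4 and 52.9 CPM in PC9ER and 103, 105, 122 and 137 CPM in PC9 (log2 difference -1.41, -1.12 with the offset). PCNA, MCM6 and CDC6 were called in all 7 fits with a library left out. The clamp loader subunits RFC3 and RFC4 were at 11.2 to 25.8 CPM in PC9ER against 43.7 to 56.7 in PC9 and 12.2 to 29.1 CPM in PC9ER against 50.8 to 65.4 in PC9, with log2 differences of -1.60 and -1.58 (-1.17 and -1.36 with the offset). The other separated genes were GINS1, GINS2, RRM1 and POLE2, with log2 differences of -1.03, -1.01, -1.05 and -1.39, of which GINS1, RRM1 and POLE2 were not separated with the offset (-0.15, -0.62 and -0.75). POLA1 and CCNE2, the catalytic chain of DNA polymerase alpha and an S phase cyclin, had log2 differences of -2.06 and -2.09 that were not called, and of -1.64 and -1.61 that were called with the offset. Left-out libraries moved the count of called S phase genes between 3 and 17 without the offset and between 16 and 20 with it. The 17 came from the fit without the miR-21 knockdown library, which called 7531 of all 16739 genes. The miR-21 knockdown library alone against PC9 gave 2 called genes, and 12 with the offset.

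**Figure D3:**
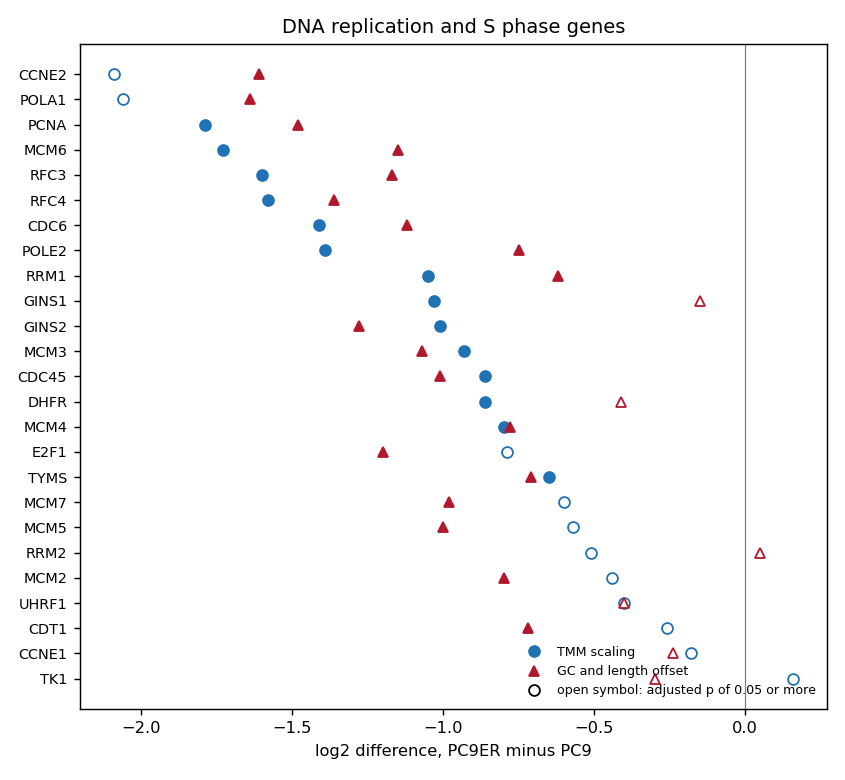
log2 difference of PC9ER minus PC9 (x axis) for the 25 DNA replication and S phase genes (rows), with TMM scaling (circles) and with the GC and length offset (triangles), filled where the adjusted p was under 0.05. All genes but TK1 lie below 0 with TMM scaling, and the filled symbols run from -0.65 to -1.79 (circles) and from -0.62 to -1.64 (triangles).

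The promoters of MCM6 and RFC3 are shown because these genes moved together and because such genes are textbook targets of E2F factors. The sequences are the 250 bases before the transcription start in RefSeq (GRCh38.p14, given on the minus strand at chr2:135876444-135876693 for MCM6 and on the plus strand at chr13:33817899-33818148 for RFC3). Capitals mark matches of TTTCCCGC, TTTCGCGC, TTTGCCGC or TTTGGCGC on either strand.
MCM6: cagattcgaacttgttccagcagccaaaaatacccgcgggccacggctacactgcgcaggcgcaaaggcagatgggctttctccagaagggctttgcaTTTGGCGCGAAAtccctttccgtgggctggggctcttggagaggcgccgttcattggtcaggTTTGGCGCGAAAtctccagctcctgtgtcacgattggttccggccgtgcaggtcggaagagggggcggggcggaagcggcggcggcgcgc
RFC3: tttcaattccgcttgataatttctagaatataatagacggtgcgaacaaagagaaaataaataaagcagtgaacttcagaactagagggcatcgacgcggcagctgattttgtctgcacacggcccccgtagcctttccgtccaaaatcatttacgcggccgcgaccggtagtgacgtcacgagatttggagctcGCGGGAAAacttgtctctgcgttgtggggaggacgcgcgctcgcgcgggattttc
MCM6 held 4 matches, in 2 places where a match on each strand overlaps the other, and RFC3 held 1. Of all 35116 RefSeq promoter windows of that length, 2.79% held a match. Matches were not counted over the other genes of the list, so these 2 chosen examples show no enrichment. RFC3 was called in 3 of the 7 fits with a library left out. A match describes letters in the window and shows neither a bound factor nor a cause.

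Of 9 CDK inhibitors and D-type cyclins 3 inhibitors were called, each higher. CDKN1A, which codes for p21 and is induced by p53, was at 231, 168 and 183 CPM in PC9ER and 70.6, 48.3, 39.3 and 37.1 CPM in PC9 (log2 difference 1.99, SE 0.26, edgeR adjusted p = 0.00632, 1.63 with the offset). CDKN2B, which codes for p15 and responds to TGF-beta, was at 25.1, 25.1 and 18.0 CPM in PC9ER and 3.63, 8.07, 8.30 and 8.54 CPM in PC9 (log2 difference 1.68, 1.36 with the offset). CDKN1C, which codes for p57, was at 5.22, 4.15 and 2.53 CPM in PC9ER and 1.000, 1.55, 1.38 and 1.39 CPM in PC9 (log2 difference 1.57, 1.11 with the offset). All 3 were separated, so by that rule their lines did not overlap, beside 5.82% of all genes separated and higher. CDKN1A was called in all 7 fits with a library left out, and CDKN2B and CDKN1C in 3 each. Of 25 G2/M genes, edgeR called 0, with 6 at an unadjusted p under 0.05, DESeq2 called 5 and limma voom 1, and the list's median was -0.39. With the offset 4 were called, each lower. Without the miR-21 knockdown library 13 were called, beside 17 S phase genes and 7531 of all 16739 genes in that fit. Whether the 2 lists differ was not tested. BUB1B, a spindle checkpoint kinase, was at 17.1, 27.7 and 56.5 CPM in PC9ER and 118, 72.5, 90.5 and 74.3 CPM in PC9 (log2 difference -1.39, edgeR adjusted p = 0.0597).

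Some targets of YAP and TEAD were higher in PC9ER. These transcription partners act downstream of the Hippo pathway and of cell spreading. Of 23 target genes tested, 7 were called higher and 1 lower, and 5 and 1 were separated. With the offset 9 were called higher and 2 lower, with 5 and 1 separated, and the median was 0.43 without and 0.49 with it. Of the 23 differences 8 were below 0, and 2 to 13 genes were called with a library left out. The 13 came from the fit without the miR-21 knockdown library, which called 7531 of all 16739 genes. CTGF, a matricellular growth factor and classical YAP target, was at 37.8, 19.1 and 18.5 CPM in PC9ER and 4.07, 2.69, 3.07 and 3.03 CPM in PC9 (log2 difference 2.96, SE 0.32, edgeR adjusted p = 0.00397, 2.80 with the offset). CYR61, its close relative, was at 502, 421 and 262 CPM in PC9ER and 124, 179, 174 and 199 CPM in PC9 (log2 difference 1.22, 1.15 with the offset). ANKRD1, a nuclear ankyrin repeat protein, was at 21.9, 27.6 and 49.0 CPM in PC9ER and 7.70, 7.16, 14.7 and 14.9 CPM in PC9 (log2 difference 1.57, 2.02 with the offset). AJUBA, an adaptor that inhibits the Hippo kinases, was at 26.6 to 47.6 CPM in PC9ER against 15.2 to 17.5 in PC9 (log2 difference 1.28, 1.06 with the offset). These 4 genes were separated, so by that rule their lines did not overlap. CTGF was called in all 7 fits with a library left out, AJUBA in 3, CYR61 in 2 and ANKRD1 in 1, that without the miR-21 knockdown library (1.16). The lower gene was TGFB2, a TGF-beta ligand that is also on the TGF-beta list, at 20.6, 23.5 and 14.8 CPM in PC9ER and 62.1, 43.7, 54.2 and 59.8 CPM in PC9. Its log2 difference of -1.48 was -0.23 with the offset (edgeR adjusted p = 0.741), and its GC content was 38.7%. Its 3 PC9ER libraries were each below PC9 without the offset. With the offset they were at 48.7, 44.0 and 10.4 CPM, against 34.3, 39.4, 37.9 and 47.6 CPM in PC9. Only the miR-21 knockdown library was then below every PC9 library, and the cause was not tested.

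The CTGF promoter is shown because CTGF was called in all 7 fits with a library left out and TEAD factors bind sites with GGAATG. FOXF2, a forkhead factor on the list, had a larger difference at few counts (1.26 to 3.44 CPM in PC9ER against 0 to 0.481 in PC9, log2 difference 3.49, 3.14 with the offset). The CTGF sequence is the 250 bases before the start in RefSeq (GRCh38.p14, minus strand, chr6:131951373-131951622), and capitals mark GGAATG or its reverse complement. The ANKRD1 window (minus strand, chr10:90921088-90921337) is given beside it.
CTGF: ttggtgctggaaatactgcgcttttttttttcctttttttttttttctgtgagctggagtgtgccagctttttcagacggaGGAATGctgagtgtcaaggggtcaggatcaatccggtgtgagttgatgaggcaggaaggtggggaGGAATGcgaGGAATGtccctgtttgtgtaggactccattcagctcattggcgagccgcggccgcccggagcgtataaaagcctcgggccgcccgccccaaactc
ANKRD1: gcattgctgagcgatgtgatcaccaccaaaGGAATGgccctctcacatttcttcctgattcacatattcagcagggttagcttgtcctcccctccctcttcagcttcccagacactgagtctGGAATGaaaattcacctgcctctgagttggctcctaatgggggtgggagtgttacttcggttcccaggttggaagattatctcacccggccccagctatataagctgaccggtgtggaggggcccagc
CTGF held 3 matches and ANKRD1 2, where 11.9% of the 35116 promoter windows held at least 1. Matches were not counted over the other genes of the list, so these 2 chosen examples show no enrichment. As above, the letters show no binding.

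Matrix proteases and their regulators formed the list with the highest median. Of 15 tested, 8 were called, each higher and each separated, and the median was 1.13. With the offset 8 were called and 6 separated, with a median of 0.70. MMP14, a membrane-bound collagenase that activates MMP2, was at 119, 79.7 and 88.0 CPM in PC9ER and 26.9, 26.1, 26.8 and 21.6 CPM in PC9 (log2 difference 1.91, SE 0.19, edgeR adjusted p = 0.00397, 1.53 with the offset). PLAU, the urokinase-type plasminogen activator, was at 652, 483 and 497 CPM in PC9ER and 181, 255, 214 and 215 CPM in PC9 (log2 difference 1.33, 1.1 with the offset). TIMP2, an inhibitor of these proteases, was higher as well, at 764, 696 and 548 CPM in PC9ER and 248, 295, 285 and 304 CPM in PC9 (log2 difference 1.24, 1.17 with the offset). MMP24, a membrane-type protease, and MMP28, called epilysin, were at 8.72 to 13.8 CPM in PC9ER against 0.555 to 1.88 in PC9 and 3.81 to 4.23 CPM in PC9ER against 0.185 to 1.03 in PC9. All but MMP28 of the 5 genes were called in the 7 fits with a library left out, and MMP28 in 5. Receptors of the matrix rose in part. Of 17 integrins 4 were called and separated, each higher, and 3 stayed separated with the offset. ITGA5, the fibronectin receptor chain, was at 323, 229 and 222 CPM in PC9ER and 112, 80.7, 74.7 and 70.6 CPM in PC9 (log2 difference 1.61, 1.26 with the offset). ITGB3, the beta chain of the vitronectin receptor, was at 1.19 to 2.27 CPM in PC9ER against 0.0912 to 0.259 in PC9 and ITGA11, a collagen receptor chain, at 2.07 to 3.50 CPM in PC9ER against 0.606 to 1.33 in PC9.

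Members of both the epithelial and the mesenchymal lists were higher. Of 18 mesenchymal markers 8 were called, each higher, and 5 separated (5 and 3 with the offset), with a median of 0.63 and 0.43 with the offset. TNC, a matrix glycoprotein of wounds and tumours, was at 58.6, 50.2 and 51.4 CPM in PC9ER and 22.8, 16.4, 16.6 and 14.4 CPM in PC9 (log2 difference 1.60, edgeR adjusted p = 0.0061, 1.44 with the offset). COL5A1, a fibrillar collagen, was at 283, 171 and 118 CPM in PC9ER and 93.3, 46.3, 43.8 and 46.7 CPM in PC9 (log2 difference 1.73, 1.44 with the offset), and its call was kept in 2 of 7 fits with a library left out. VIM, the intermediate filament of mesenchymal cells, was at 525, 384 and 263 CPM in PC9ER and 237, 94.9, 86.6 and 66.9 CPM in PC9. The parental PC9 library was near the lowest PC9ER library for VIM, its log2 difference of 1.69 became 1.11 with the offset (edgeR adjusted p = 0.145), and it was called in 2 of the 7 fits with a library left out. Of 27 epithelial junction genes 8 were called, each higher, and 6 separated, with 10 and 2 with the offset and medians of 0.40 and 0.44. CLDN4 and CGN, a claudin and the junction protein cingulin, had log2 differences of 1.11 and 1.25, and 0.83 and 0.86 with the offset, which left them called but under a log2 difference of 1. Among 15 regulators of the epithelial to mesenchymal transition, 3 were called (4 higher and 3 lower with the offset), GRHL3, SNAI3 and OVOL1, each higher. GRHL3 is an epithelial grainyhead factor and was at 3.50 to 10.0 CPM in PC9ER against 0.444 to 1.05 in PC9.

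Keratins and S100 proteins did not move one way as lists, with medians of 0.13 and 0.56, and the members that passed the stricter limits were lower. Of 16 keratins 3 were called lower and separated, and 1 was called higher. Of 12 S100 genes 2 were called lower and 0 higher, with 7 of the 12 differences above 0. KRT13, a keratin of mucosal stratified epithelium, was at 55.3, 51.1 and 16.7 CPM in PC9ER and 140.4, 131, 132 and 123 CPM in PC9 (log2 difference -1.68, edgeR adjusted p = 0.0295, -2.16 with the offset). KRT17, a keratin of basal and wounded epithelium, was at 36.5, 16.9 and 11.4 CPM in PC9ER and 71.9, 57.2, 50.2 and 66.0 CPM in PC9 (log2 difference -1.51, -2.07 with the offset). KRT4, the partner of KRT13, had 3 counts over the 3 PC9ER libraries against 256 over PC9, 58.1 times more per effective library size in PC9 (95% exact interval 19.7 to 284, counting error only). The calprotectin chains of mucosal defence moved with them. S100A9 was at 41.3, 42.8 and 14.1 CPM in PC9ER and 107, 107, 94.6 and 109 CPM in PC9 (log2 difference -1.68, -2.10 with the offset) and S100A8 had 5 counts in PC9ER against 108 in PC9, 14.7 times more in PC9 (95% exact interval 6.12 to 46.2). KRT13 and S100A9 were called in 1 of 7 fits with a library left out, that without the miR-21 knockdown, which was their lowest library, and KRT17 in 2. CEACAM6, an adhesion glycoprotein of airway epithelium, was at 230.4, 297 and 178 CPM in PC9ER and 395, 862, 939 and 987 CPM in PC9 (log2 difference -1.76, edgeR adjusted p = 0.0195, -1.80 with the offset).

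Insulin-like growth factor binding proteins split. Of 7, 2 were called higher and 1 lower. IGFBP5, which binds IGFs in the matrix, had 4 counts over the 3 PC9ER libraries and 420 over the 4 PC9 libraries, 71.5 times more per effective library size in PC9 (95% exact interval 27.7 to 264, counting error only). IGFBP7, a related secreted protein, was at 98.3, 55.7 and 47.1 CPM in PC9ER and 8.48, 20.4, 15.1 and 19.6 CPM in PC9 (log2 difference 2.08, edgeR adjusted p = 0.0139, 1.82 with the offset). GPR143, a melanosomal receptor, was the converse of IGFBP5, with 179 counts in PC9ER and 2 in PC9, 131 times more in PC9ER (95% exact interval 35.8 to 1090). IGFBP5, GPR143 and a clone-named antisense transcript were the only genes under 0.2 CPM throughout one line and at least 2 CPM throughout the other. Under the stricter limits of 0.1 and 5 CPM there was no such gene.

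Inflammatory genes moved in both directions. Of 30 interleukin, chemokine and NF-kB genes, 4 were called higher and 5 lower, and with the offset 2 higher and 9 lower. IL18, an epithelial cytokine of the inflammasome pathway, was at 61.5, 55.7 and 57.5 CPM in PC9ER and 13.8, 14.95, 19.4 and 16.4 CPM in PC9 (log2 difference 1.85, SE 0.18, edgeR adjusted p = 0.00397, 2.59 with the offset). The PC9ER libraries lay close together for IL18, and it was called in all 7 fits with a library left out. CXCL1, a neutrophil chemokine, was at 10.1, 12.9 and 7.51 CPM in PC9ER and 27.7, 33.7, 36.1 and 37.0 CPM in PC9 (log2 difference -1.73, -1.43 with the offset). Its relatives CXCL2 and CXCL6 were at 0.336 to 0.680 CPM in PC9ER against 1.00 to 2.18 in PC9 and 1.13 to 2.41 CPM in PC9ER against 4.19 to 7.29 in PC9. CSF3, the granulocyte growth factor, had 8 counts in PC9ER against 106 in PC9, 9.03 times more in PC9 (95% exact interval 4.42 to 21.5). CXCL2 was called in 1, CXCL6 in 2 and CSF3 in 3 of the 7 fits with a library left out. Of 27 type I interferon response genes 7 were called, each higher, and 6 separated, with 9 called higher and 1 lower with the offset. STAT2 and IRF9, which form part of the interferon-activated transcription complex, were at 48.9 to 55.8 CPM in PC9ER against 14.7 to 26.4 in PC9 and 6.19 to 10.0 CPM in PC9ER against 2.74 to 3.03 in PC9 (log2 differences 1.19 and 1.57, 1.04 and 1.20 with the offset). OAS2, an antiviral RNA sensor, was at 5.55 to 7.10 CPM in PC9ER against 2.23 to 3.59 in PC9 (log2 difference 1.15, 1.29 with the offset). ISG15, a ubiquitin-like antiviral protein, had a log2 difference of 1.32 and of 0.92 with the offset. IRF9 was called in all 7 fits with a library left out, STAT2 and ISG15 in 3 and OAS2 in 2. In antigen presentation, 1 of 20 genes was called higher and 1 lower. HLA-DRA, a class II chain, had 11 counts in PC9ER against 100 in PC9, 6.19 times more in PC9 (95% exact interval 3.32 to 12.8), and it was called in 2 of the 7 fits.

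Some genes of hypoxia and stress were higher, singly and not as whole pathways. Of 34 glycolysis and HIF genes 6 were called higher and 1 lower. NDRG1, a stress gene induced by hypoxia, was at 164, 155 and 135 CPM in PC9ER and 27.3, 31.6, 26.1 and 25.2 CPM in PC9 (log2 difference 2.46, SE 0.16, edgeR adjusted p = 0.00387, 2.08 with the offset). The PC9ER libraries were all more than 4-fold above PC9. ANGPTL4, a lipoprotein lipase inhibitor, was at 9.45, 3.70 and 13.2 CPM in PC9ER and 0.555, 0.912, 0.780 and 0.848 CPM in PC9 (log2 difference 3.51, 3.20 with the offset). SLC2A1, the glucose transporter GLUT1, was at 938, 771 and 389 CPM in PC9ER and 309, 351, 318 and 312 CPM in PC9 and its log2 difference of 1.12 became 0.71 with the offset. The median of the list was 0.36 and 0.06 with the offset. Of 27 NRF2 and glutathione genes 4 were called, each higher, beside 8.14% of all genes called higher. With the offset 5 were called higher and 4 lower. The median of this list was -0.009 without and -0.094 with the offset. HMOX1, the heme oxygenase, was at 21.3, 15.1 and 15.8 CPM in PC9ER and 4.37, 4.51, 3.39 and 4.48 CPM in PC9 (log2 difference 2.05, edgeR adjusted p = 0.00397, 1.63 with the offset). GPX3, a secreted glutathione peroxidase, was at 179, 149 and 172 CPM in PC9ER and 55.9, 69.9, 61.1 and 64.1 CPM in PC9 (log2 difference 1.41, 1.12 with the offset). The 3 genes NDRG1, HMOX1 and GPX3 were called in all 7 fits with a library left out. Of 15 aldehyde dehydrogenases 2 were called, each higher, and with the offset 2 were called higher and 1 lower. Of 6 drug efflux transporters edgeR called 0, with 1 at an unadjusted p under 0.05, and DESeq2 and limma voom called 1 each. With the offset 2 were called, each lower, beside 8.96% of all genes called lower. One of them, ABCC4, had log2 differences of -1.52 without and -1.26 with the offset.

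Apoptosis genes were called in both directions. Of 15 BCL2 family genes 3 were called higher and 1 lower, beside 8.14% and 3.25% of all genes. With the offset 3 were called, each higher, beside 10.7% of all genes called higher. BCL2L1, the survival protein BCL-XL, was at 348, 316 and 223 CPM in PC9ER and 114, 159, 143 and 156 CPM in PC9 (log2 difference 1.05, edgeR adjusted p = 0.0187, 0.70 with the offset). BBC3, the p53-induced death activator PUMA, was at 5.13 to 11.1 CPM in PC9ER against 2.59 to 3.99 in PC9 (log2 difference 1.33, 0.86 with the offset). BCL2 was at 3.77 to 5.77 CPM in PC9ER against 9.17 to 10.8 in PC9 (log2 difference -1.16) and was not called with the offset (-0.76). With a library left out BCL2 and BCL2L1 were called in 3 of 7 fits and BBC3 in 1, and the list's count ran from 0 to 9. The 9 came from the fit without the miR-21 knockdown library, which called 7531 of 16739 genes. In development-linked lists, 5 of 28 Wnt and Notch genes were called higher and 2 lower. WNT7A, a Wnt ligand, was at 84.4, 54.3 and 54.0 CPM in PC9ER and 19.0, 31.0, 25.5 and 26.8 CPM in PC9 (log2 difference 1.33, 1.1 with the offset). WNT5A, a ligand of the non-canonical pathway, went down, at 27.1, 30.6 and 26.5 CPM in PC9ER and 72.2, 49.4, 59.8 and 61.2 CPM in PC9 (log2 difference -1.11, -0.98 with the offset). DKK1, a secreted Wnt inhibitor, was at 136 to 241 CPM in PC9ER against 62.5 to 108 in PC9 (log2 difference 1.04, 1.52 with the offset). Of 21 HOX genes, HOXB13 and HOXD8 were higher and HOXA9 lower, with log2 differences of 2.69, 2.47 and -1.46 (2.41, 2.40 and -1.68 with the offset). SMAD7, the inhibitory SMAD that TGF-beta induces, was at 10.7 to 19.1 CPM in PC9ER against 3.69 to 6.15 in PC9 (log2 difference 1.55, 1.17 with the offset). It was 1 of 3 genes called higher on a TGF-beta list of 26 with a median of 0.04.

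**Figure D4:**
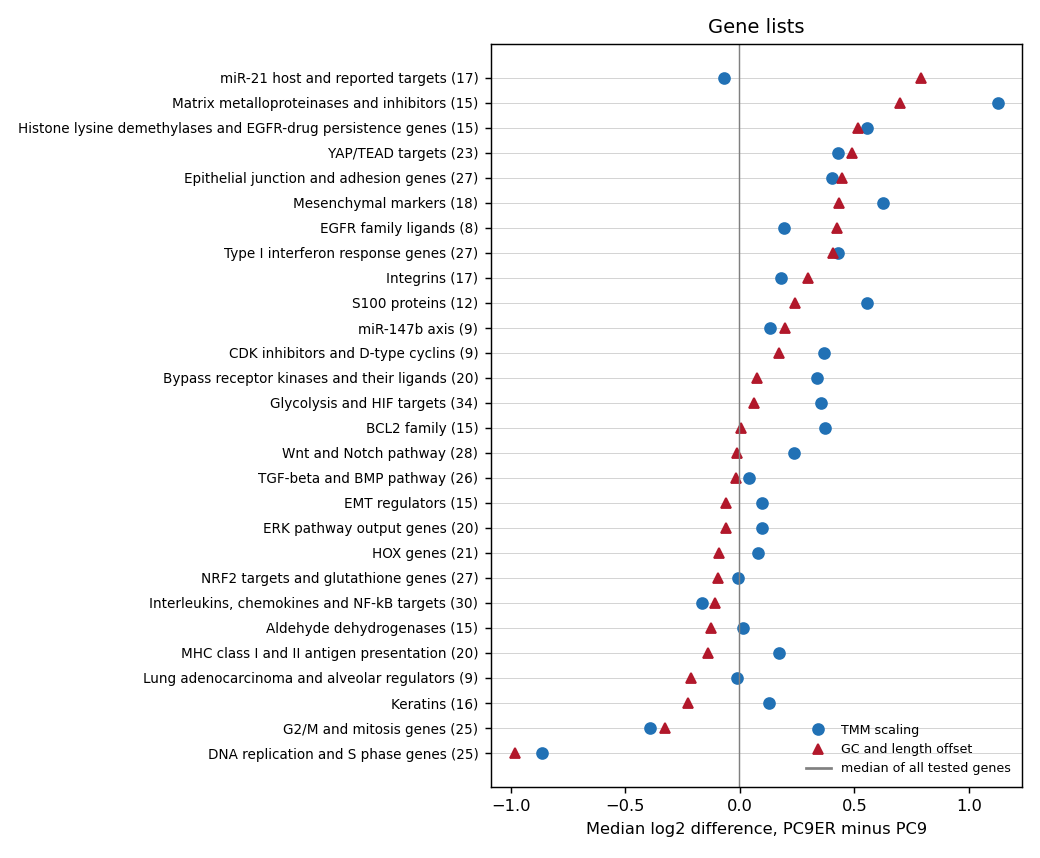
Median log2 difference of PC9ER minus PC9 (x axis) of the gene lists with at least 8 tested members (rows, with the number tested), with TMM scaling (circles) and with the GC and length offset (triangles). The line marks the median of all tested genes. S phase genes lie lowest in both (-0.86 and -0.98), and matrix protease genes lie highest with TMM scaling (1.13, 0.70 with the offset).

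Several genes that the study's tolerant PC9 cells raise were also set beside these values. The tolerant comparison (2 libraries against the same 4 PC9 libraries) called 1686 genes higher and 1739 lower of 17683 tested, 9.53% and 9.83%, and since it shares the PC9 libraries with the PC9ER comparison, the values stand side by side without a test. LBH, PIK3IP1, NEURL1B and CTGF had log2 differences of 3.29, 3.03, 2.82 and 2.51 in tolerant cells and 3.59, 2.69, 2.74 and 2.96 in PC9ER. VTCN1, the B7 family immune checkpoint ligand B7-H4, was at 6.01, 6.11 and 4.34 CPM in PC9ER and 0.592, 1.23, 0.963 and 1.45 CPM in PC9, a log2 difference of 2.38 in PC9ER and 4.17 in tolerant cells. TP53INP1, a p53-induced stress protein, had 2.18 in PC9ER, called in 1 of 7 fits with a library left out, and 4.18 in tolerant cells. PCNA, MCM6 and CDC6 had -0.99, -1.02 and -1.31 in tolerant cells, each called. Other genes did not go the same way. CDKN1A, higher by 1.99 in PC9ER, had -0.43 in tolerant cells (edgeR adjusted p = 0.323). IGFBP5, nearly absent from PC9ER, had 3.97 in tolerant cells (edgeR adjusted p = 0.00277), and TGFB2 had 2.13 against -1.48 in PC9ER. COL12A1, 1 of the largest deficits in PC9ER, had -0.28 in tolerant cells. The list of histone demethylases and drug-persistence genes, on which LBH, PIK3IP1, VTCN1 and TP53INP1 stand, held 7 called genes of 15 in PC9ER, each higher. It was written with earlier results of these libraries known and is no independent evidence.

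Genes of the 2 miRNA lists were looked at without and with the GC offset, and the miR-21 list depended on it. Of 9 genes of the miR-147b axis edgeR called 0, with 1 at an unadjusted p under 0.05, and DESeq2 and limma voom also called 0. Without the miR-21 knockdown library 3 were called, in a fit that called 7531 of all 16739 genes. VHL, which marks HIF for degradation, was at 62.9, 63.2 and 39.2 CPM in PC9ER and 44.9, 52.4, 53.0 and 50.4 CPM in PC9 (log2 difference 0.13, edgeR adjusted p = 0.681). SDHD, a subunit of succinate dehydrogenase, was at 42.3, 46.1 and 61.7 CPM in PC9ER and 54.8, 50.9, 74.5 and 64.7 CPM in PC9 (log2 difference -0.29, edgeR adjusted p = 0.37). C15orf48, the host gene of MIR147B, was at 288, 239 and 94.2 CPM in PC9ER and 17.9, 166, 149 and 129 CPM in PC9, with the parental PC9 library far below the other 6 (log2 difference 0.84, edgeR adjusted p = 0.407, 1.42 with the offset). VMP1, whose transcription unit holds MIR21, was at 90.7, 90.3 and 115 CPM in PC9ER and 52.8, 58.7, 73.8 and 77.8 CPM in PC9 (log2 difference 0.59, edgeR adjusted p = 0.0877), and was called with the offset (0.92, adjusted p = 0.00716). Of 17 genes of the miR-21 list 2 were called higher and 1 lower, with a median of -0.07. With the offset 9 were called higher and 1 lower, and the median was 0.79. RHOB, a small GTPase, and BTG2, an antiproliferative p53 target, were separated in both fits, at 63.0 to 95.6 CPM in PC9ER against 25.7 to 28.99 in PC9 and 2.95 to 4.03 CPM in PC9ER against 1.14 to 1.70 in PC9.

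Neighbouring genes moved together in some chromosome regions. Tested protein-coding genes were ordered along each chromosome and read in windows of 25 genes, a description with no test, in which a median of at least 0.5 in size marked a region. There were 78 such regions without and 11 with the GC offset, and most of the 78 had a smaller median with it. Some of the 11 were not among the 78. WDFY1 to PTMA on chromosome 2 had medians of 0.11 without and 0.51 with the offset. TPD52 to GEM on chromosome 8 turned from -0.36 to 0.345. The longest that held in both was on chromosome 17. From RPH3AL, the first tested gene of the chromosome, to KSR1, 88.3% of 257 genes were higher in PC9ER without the offset, with a median of 0.68. With the offset the stretch from CAMTA2 to PIGL remained the longest, where 104 of 118 genes were higher (88.1%) with a median of 0.57. The 3 PC9ER libraries had medians of 0.53, 0.54 and 0.53 there against the mean of the PC9 libraries, and the PC9 libraries, each against the other 3, had 0.23 (parental), -0.08, -0.05 and -0.06. The stretch was raised in part in the tolerant comparison too, with a median of 0.23 with the offset, beside 0.004 for all genes. Of its 118 genes, 52 were called with the offset in PC9ER and 14 were separated in both fits, each higher. Among them NLRP1, an inflammasome sensor, was at 4.68 to 10.9 CPM in PC9ER and 0.584 to 1.46 in PC9 with the offset (log2 difference 2.94). CHD3, a chromatin remodeller of the NuRD complex, was at 449 to 465 and 189 to 258 (1.13). CD68, a lysosomal glycoprotein, was at 90.1 to 196 and 38.6 to 49.8 (1.62). SLC13A5, a citrate transporter, was at 6.32 to 10.1 and 1.93 to 2.24 (2.07). DNA copy number was not measured here.

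**Figure D5:**
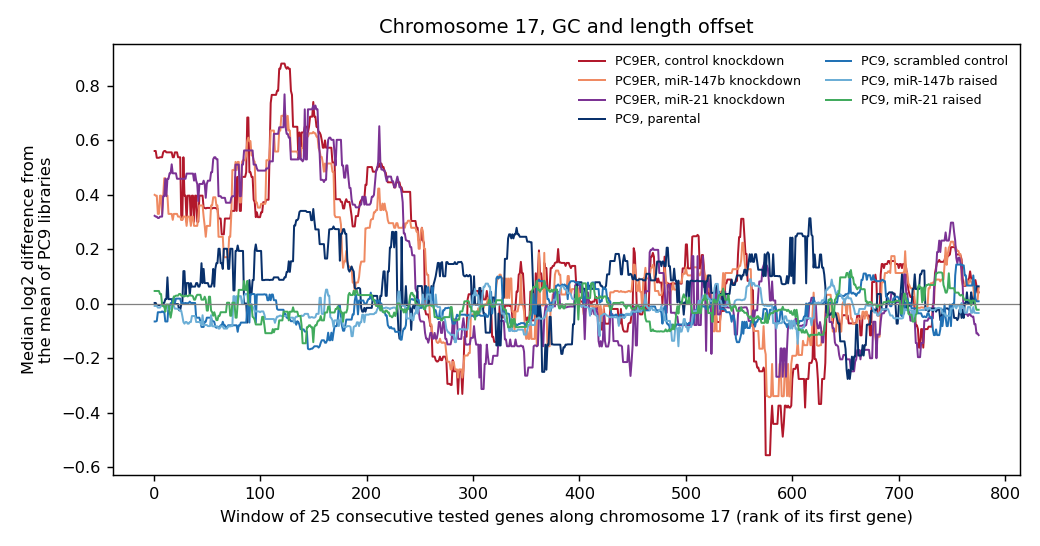
Running median over 25 consecutive tested genes along chromosome 17 (x axis, rank of the first gene) of each library's log2 difference from the mean of the PC9 libraries, with the GC and length offset (for a PC9 library, the mean of the other 3). Over the first 257 genes the PC9ER libraries have medians of 0.47, 0.37 and 0.46, and the parental PC9 library 0.12.

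Other regions were shorter. On chromosome 16, from ADCY7 to C16orf80, 37 of 48 genes were higher with medians of 0.53 without and 0.52 with the offset. It holds the metallothionein MT2A, at 248 to 401 CPM in PC9ER and 111 to 237 in PC9 with the offset (log2 difference 1.06), and DOK4, an adaptor of receptor kinases (1.41). On chromosome 6, from IRAK1BP1 to KIAA1919, 67 of 88 genes were higher with the offset (median 0.51), while the median without it was -0.06, with 0.42 in the miR-21 knockdown library and -0.43 and -0.33 in the other 2. Genes separated there in both fits were PNRC1, RRAGD, PRDM1, MICAL1 and FIG4. Regions lower in PC9ER in both were CACNA2D3 to PSMD6 on chromosome 3 (26 genes, -0.56 without and -0.53 with the offset), NAIP to THBS4 on chromosome 5 (44 genes, -0.87 and -0.49), GLCCI1 to CCDC126 on chromosome 7 (37 genes, -0.68 and -0.18) and THNSL1 to CSGALNACT2 on chromosome 10 (36 genes, -0.86 and -0.46). The 3 PC9ER libraries were below the mean of PC9 in each of these, but the lines were not apart on chromosome 7. There, with the offset, the PC9ER libraries had medians of -0.49, -0.47 and -0.12. Parental PC9, against the other PC9 libraries, had -0.15, lower than the miR-21 knockdown library. With the offset, the tolerant comparison had medians of 0.24 (chromosome 16), 0.10 (6), -0.24 (3), -0.06 (5), 0.25 (7) and -0.02 (10).

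Levels in the other lines, on a scale of all 21 libraries, put the differences in context. CTGF was at 19.8 to 39.9 in PC9ER, 2.86 to 4.29 in PC9, 23.4 to 34.1 in H1975, the other line labelled T790M positive, and 3.17 to 7.98 in HCC827. CDKN1A was at 181 to 244 in PC9ER, 39.1 to 74.4 in PC9, 127 to 152 in H1975 and 5.18 to 32.0 in HCC827. These 2 genes were thus higher than in PC9 in both lines labelled T790M positive, which are different tumours and were carried in the same type of knockdown libraries. PCNA was lower than in PC9 in both of these lines, and in HCC827 as well. LBH was higher than in PC9 in PC9ER but not in H1975. PCNA was at 162 to 190 in PC9ER, 455 to 703 in PC9, 297 to 317 in H1975 and 288 to 334 in HCC827, and LBH at 49.4 to 106, 2.53 to 8.79, 1.34 to 2.10 and 0.254 to 2.21.

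The label of both lines was checked against markers. Of 9 lung epithelial carcinoma markers 7 were above 1 CPM in all 7 libraries, with summed levels of 9630 to 17900 CPM in PC9ER and 9140 to 13700 in PC9. Most of that sum was the epithelial keratins KRT7, KRT8, KRT18 and KRT19. The other 2, the lung-lineage genes NKX2-1 and NAPSA, were under 1 CPM in all 7 libraries. NKX2-1 reached at most 0.159 CPM and NAPSA 0.31. These markers thus show epithelial cells and do not check the lung label. Leukocyte markers summed to 110 to 184 CPM in PC9ER and 42.1 to 51.0 in PC9, almost all of it CD68, which lies in the chromosome 17 region, while CD2, MS4A1 and TYROBP were at 0 counts in all 7 libraries. Fibroblast markers summed to 24.5 to 45.0 and 10.2 to 25.9 CPM, almost all of it COL1A1, with LUM at 0 counts. Endothelial markers summed to 32.9 to 56.4 and 58.8 to 73.9 CPM, mostly ESAM and CDH5. Neuroendocrine markers summed to 1030 to 1330 and 730 to 1280 CPM, nearly all UCHL1, with INSM1 and GRP at 0 counts. Basal and squamous markers summed to 1060 to 1540 and 1350 to 1570 CPM. Their direction was mixed, with KRT5 at 31.4 to 95.9 in PC9ER and 112 to 359 in PC9 and PKP1 at 7.25 to 11.3 and 3.18 to 5.56, and 2 of 9 tested were called, each higher.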

How the data were processed

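Poly(A)-selected RNA of cultured lines was sequenced, per the labels' protocols. The authors deposited expected counts per gene, made with Bowtie2, RSEM and GRCh37 per the submitters' processing notes, in which no versions are given, and a read summary with the reads and the percent of bases above a quality limit per library. Of the nonzero values 64.3% were not whole, so counts were rounded. Columns with no sample numbered 0.

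The 3 PC9ER and 4 drug-free PC9 libraries were tested in R 4.3.3 with edgeR 4.0.16 (filterByExpr, TMM, quasi-likelihood test, Benjamini-Hochberg adjustment at 0.05), which was tested on simulated data. GC and length offsets were lowess curves of span 0.3 per library on GENCODE 29 transcripts, available for 95.5% of the tested genes, and were chosen after seeing the GC trend. The GRCh38 annotation gave names, gene order and GC content only. Alternatives included DESeq2 1.42.0, limma 3.58.1 voom, other scalings and filters, and each library left out.

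Genes named were the 12 largest differences per direction among separated genes with at least 10 CPM in each library of the higher line, and up to 6 separated members per list, the largest first. EGFR, ERBB2, ERBB3, MET, AXL, C15orf48, VMP1, VHL and SDHD were always included. Other genes named were chosen after their values were seen. Some items that the rule names are not reported here. The comparison and the lists were chosen with earlier results of these data known.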

Additional observations from a re-analysis of the deposited data

Results flagged for a closer look

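Among the 4 PC9 libraries, 1 lay far from the other 3 by Dixon's test in 10 of the 121 genes looked at (8.26%), where chance gives about 1 in 20, and 6 of the 10 were in the parental library, which carries no vector. In the parental library VIM was at 237 CPM (66.9 to 94.9 in the others), COL5A1 at 93.3 (43.8 to 46.7), FBN1 at 12.4 (6.42 to 7.15), MICAL1 at 5.89 (3.15 to 3.42) and CSF3 at 2.3 (0.606 to 0.82), all above the others, while CDKN2B was below them at 3.63 (8.07 to 8.54). In the miR-147b library ARRDC3 was at 52.3 CPM (32.5 to 34.8), S100A9 at 94.6 (107 to 109) and HMOX1 at 3.39 (4.37 to 4.51). In the miR-21 library MMP14 was at 21.6 CPM (26.1 to 26.9). All 10 are separated genes, so their PC9ER libraries lay outside the range of the 4 PC9 libraries by the rule that chose them.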

How the results depend on the processing

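Over the alternatives, the 121 genes gave 2542 values on the same side of the threshold, 609 no longer called, 59 newly called, 145 values without a test that moved by more than the spread, and 29 with the opposite sign. The 1905 called and 1299 separated genes became 3285 called with the GC offset, 1237 without a filter on low counts, 3346 with DESeq2 (318 adjusted p missing), 4510 and 2092 with all 21 libraries in 1 fit, and 73 of both kinds against a log2 difference of 1. Other scalings, limma voom and a filter of 1 CPM stayed within 1.5 times. With 1 library left out the ranges were 389 to 7531 called and 385 to 4454 separated, and with the offset 1374 to 6046 (3979 without PC9 parental) and 835 to 2691 (865 without the miR-147b knockdown). The highest value of each was without the miR-21 knockdown library. That library alone against PC9, assumed to vary like the PC9 libraries, gave 313 and 309, or 900 and 641 with the offset. The labels give no shared replicate numbers, and with the miRNA target as a replicate block over the 6 vector-carrying libraries 285 genes were called and 284 separated, of which 273 are among the 1299; that fit also leaves out PC9 parental. The cause of these moves was not tested.

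The called genes of the tolerant comparison, 3425, ranged from 326 (without osimertinib) to 6706 (without PC9 parental), with 1685 without gefitinib. Chromosome regions numbered 78, 145 with windows of 15 genes, 33 with 50 genes and 11 with the offset. Genes near 0 numbered 0, and 3 under the wider limits.

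Signs turned in genes that were not called or lost their call. AXL was -0.01 without a filter, -0.23 with the offset, -0.27, -0.24, -0.23, -0.2 and -0.18 with the offset and 1 library left out, and -0.13 and -0.15 (offset) for the miR-21 knockdown library alone. ERBB3 was -0.03 to -0.06 with the offset and 1 library left out, and -0.07 and -0.05 for that library alone. MET was 0.17 with the offset and without the PC9ER control, and 0.62 and 0.65 for that library alone. The same library alone gave VHL at -0.35 and -0.38, SDHD at 0.02 and 0.05 and C15orf48 at -0.29 and -0.3. TGFB2 was 0.23 and GINS1 0.27 with the offset and without the miR-21 knockdown library. E2F1 was 0.11 in the PC9ER control against PC9 parental, 1 against 1. Counts of a few reads limit IGFBP5, KRT4, S100A8, CSF3 and HLA-DRA, whose intervals cover counting error only.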
